A study of Mus musculus with 10 samples.

Results

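The tricarboxylic acid (TCA) cycle, the entry of pyruvate into it and the breakdown of glutamine that feeds it were followed through 33 mouse genes in VHL teratomas. The members are the enzymes, carriers and subunits of these steps, chosen by gene name. A probe set counted for a member when its annotation named that gene alone, and the one with the highest mean over all arrays represented the gene. By this rule 30 of the 33 members were measured, among 18820 genes tested. Mpc2, Pdha1 and Gls2 had no such probe set and were not analysed here.

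A teratoma is a tumour holding several tissues at once, which embryonic stem cells give rise to after injection. All 10 tumours grew from Vhl-/- mouse embryonic stem cells of the J1 line, of Sv/129 strain, that carried a human VHL cDNA introduced by electroporation, and formed under the skin of female nu/nu mice. The cDNA encoded the P81S form in 4 tumours, the R167Q form in 3 and wildtype VHL in 3, and each tumour was hybridised to 1 Affymetrix array. P81S tumours are labelled apoptosis-resistant, and R167Q and wildtype tumours apoptotic. The P81S arrays come as pairs from 2 clones, without a label that says which arrays share a clone; no clone number is given for the other genotypes. The host keeps its own blood vessels, stroma and blood cells in such tumours, so each value is a sum over donor and host cells. Values are log2 expression, so that a difference of 1 is a doubling, and each is a share of what its own array measured rather than an amount per cell.

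In the cycle, acetyl groups made from pyruvate by the pyruvate dehydrogenase complex join oxaloacetate to form citrate, which is oxidised stepwise back to oxaloacetate in the mitochondrial matrix. Glutamine refills the cycle after conversion to glutamate and 2-oxoglutarate, and pyruvate carboxylase refills it at oxaloacetate. The VHL protein marks hypoxia-inducible factors (HIF) for destruction, and HIF is known to restrain pyruvate entry by inducing a pyruvate dehydrogenase kinase. The HIF prolyl hydroxylases use 2-oxoglutarate and are inhibited by succinate and fumarate, and loss of succinate dehydrogenase or of fumarate hydratase is a known cause of hereditary tumours.

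Arrays had medians of 6.97 to 7.11 log2 over 35556 probe sets. Across probe sets, Pearson's r between arrays of 1 genotype ranged over 0.966 to 0.986 for P81S, 0.984 to 0.986 for R167Q and 0.984 to 0.987 for wildtype. P81S replicate 1 stood apart in its epithelial content: its mean over 8 squamous markers was 9.53 log2, against 6.59 to 7.04 in the other P81S arrays. Y-linked transcripts, a sign of male donor cells in a female host, averaged 8.42 to 9.28 log2 in P81S and 9.12 to 9.52 in R167Q. In all wildtype arrays they averaged 4.26 to 4.70, so that wildtype stood apart from both mutants. X-linked Xist averaged 7.48 ± 0.54 log2 in P81S (SD, n = 4). In R167Q Xist averaged 8.26 ± 0.29 and in wildtype, close to P81S, 7.44 ± 0.56 (SD, n = 3 each). Whether wildtype tumours held fewer donor cells was not tested. How the Y-linked difference bears on the members was not tested, and P81S against R167Q uses no wildtype mean. Mouse Vhl averaged 8.67 ± 0.20 log2 in P81S (SD, n = 4), 6.99 ± 0.20 in R167Q and 6.91 ± 0.05 in wildtype (SD, n = 3 each), and no source used here says whether its probes lie in the deleted part. Relative to each gene's mean over all arrays, the genes of chromosome 11 had medians of -0.166 and -0.201 log2 in P81S replicates 1 and 2 and of 0.031 and 0.055 in P81S replicates 3 and 4.

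Between P81S and wildtype, 10 of 30 members passed the test (33.3%), 5 higher and 5 lower. The background in the same comparison was 34.7% of all genes, with 17.2% higher and 17.5% lower, so the share of members that passed was close to that of any gene. The test was limma's moderated test on all genes with Benjamini-Hochberg adjustment, passed at an adjusted p under 0.05. It treats arrays as independent and does not allow for the clone pairs of P81S. Between P81S and R167Q 5 of 30 members passed (16.7%), 4 higher and 1 lower, against a background of 22.5% (12.4% higher, 10.1% lower). None of the 30 passed between R167Q and wildtype, where the background was 0.0903% (17 genes, 0.0638% higher and 0.0266% lower); 5 members had an unadjusted p under 0.05 in limma there. The arrays did not overlap for 14 of 30 members (46.7%) in P81S against wildtype, beside 40.6% of all genes, and for 11 of 30 (36.7%) in P81S against R167Q, beside 30.7%. Median differences of the members were -0.05, 0.05 and -0.08 log2 in P81S against wildtype, P81S against R167Q and R167Q against wildtype, beside 0.01, 0.02 and -0.02 over all genes. Without P81S replicate 1, 7 and 6 members passed in the comparisons of P81S with wildtype and with R167Q.

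Averaged over the 30 members, the level was 10.39 to 10.43 log2 in P81S arrays, 10.26 to 10.41 in R167Q and 10.38 to 10.47 in wildtype. The mitochondrial NADP-dependent malic enzyme gene Me3 in P81S exceeded wildtype 2.31-fold, and Suclg2 of succinyl-CoA synthetase was 2.16-fold lower. These were the only members that differed by at least 2-fold in that comparison. P81S, R167Q and wildtype are set side by side below, and the comparisons share arrays, so they are not independent of one another.

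**Figure D1:**
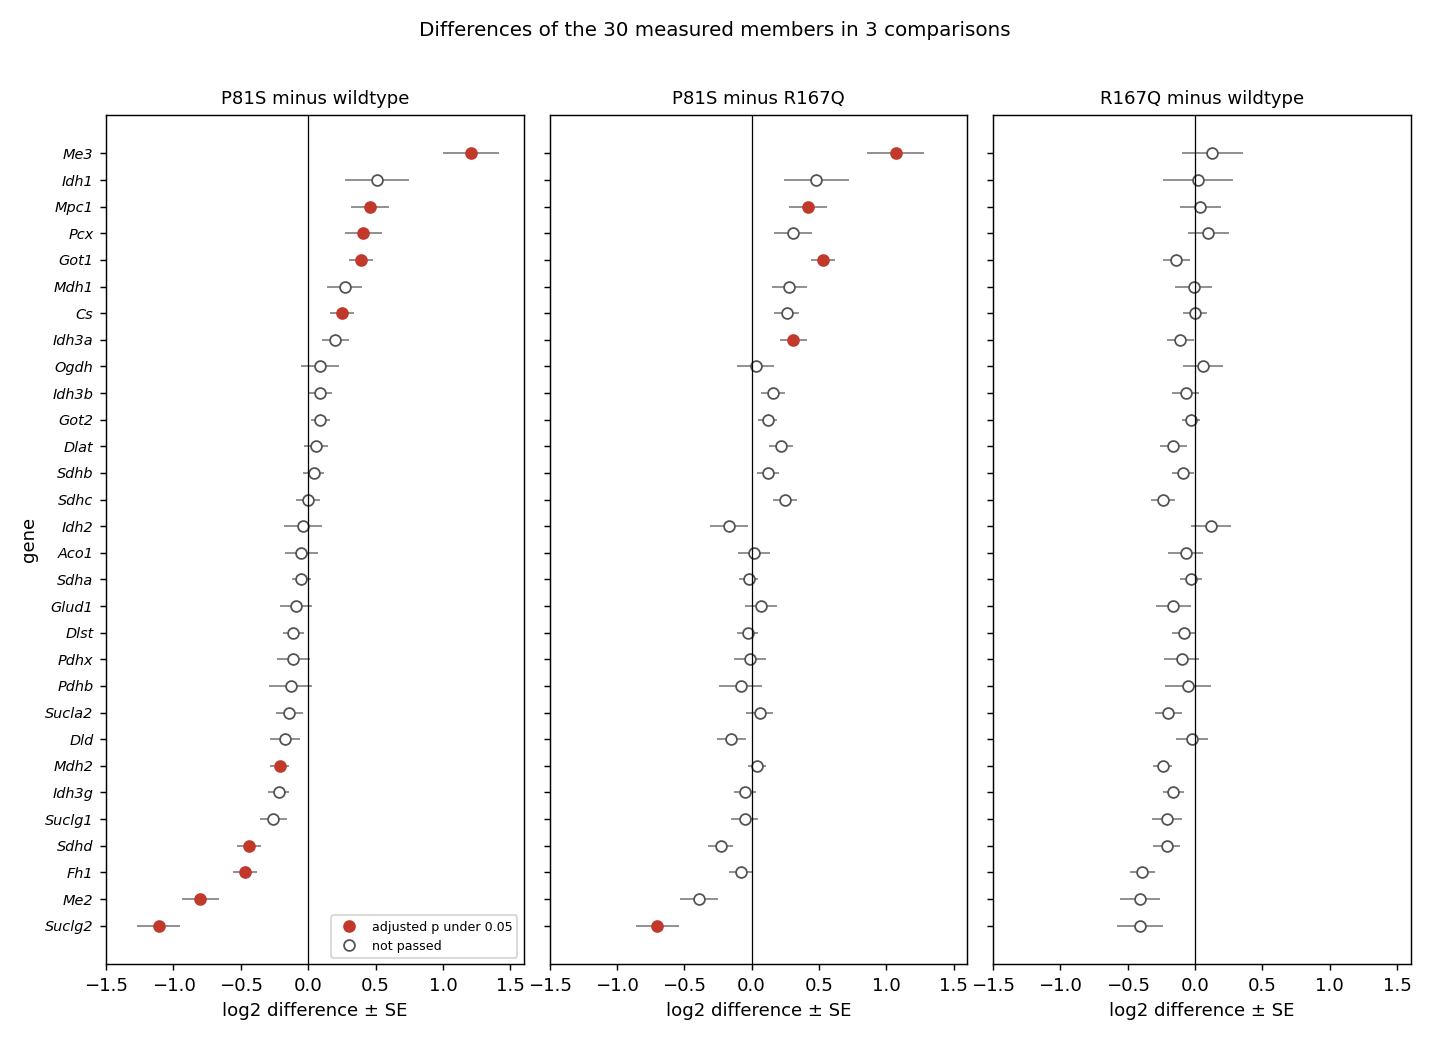
Log2 difference ± SE of each of the 30 measured members (rows, ordered by P81S minus wildtype) in 3 comparisons; filled points passed at an adjusted p under 0.05. Differences run between -1.11 for Suclg2 and 1.21 for Me3 in P81S minus wildtype, and between -0.41 and 0.13 in R167Q minus wildtype, where no point is filled.

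The promoters of 3 members are shown because they carry the largest fall, the largest rise and the sole window with ACGTG among members that passed. Each is the window from 250 bases before to 50 bases after the RefSeq start site (GRCm38.p6), written 5′ to 3′ on the gene's strand. Capitals mark ACGTG or its reverse complement CACGT, a form of the core of the hypoxia response element. The other form, GCGTG, was not searched for.
Suclg2, chr6:95718797-95719096, minus strand: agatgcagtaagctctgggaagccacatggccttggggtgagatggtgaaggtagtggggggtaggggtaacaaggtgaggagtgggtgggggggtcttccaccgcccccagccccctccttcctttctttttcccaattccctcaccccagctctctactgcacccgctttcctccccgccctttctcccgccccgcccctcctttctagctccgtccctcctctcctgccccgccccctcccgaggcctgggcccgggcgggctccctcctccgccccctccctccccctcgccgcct
Me3, chr7:89632568-89632867, plus strand: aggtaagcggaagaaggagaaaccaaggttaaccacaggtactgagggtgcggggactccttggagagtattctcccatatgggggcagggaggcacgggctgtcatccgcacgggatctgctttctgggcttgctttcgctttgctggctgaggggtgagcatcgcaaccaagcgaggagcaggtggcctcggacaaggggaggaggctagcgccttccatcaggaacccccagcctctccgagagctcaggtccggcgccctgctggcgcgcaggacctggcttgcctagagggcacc
Pcx, chr19:4510222-4510521, plus strand: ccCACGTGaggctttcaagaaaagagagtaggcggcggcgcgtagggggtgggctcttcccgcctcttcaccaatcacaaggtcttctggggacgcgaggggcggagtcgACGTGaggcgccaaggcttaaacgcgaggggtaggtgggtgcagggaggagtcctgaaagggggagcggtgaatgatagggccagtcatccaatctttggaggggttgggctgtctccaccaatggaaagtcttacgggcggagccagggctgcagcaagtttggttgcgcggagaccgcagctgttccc
Windows were found for 27 of the 30 members, and none for Idh3a and Me2, which passed in a comparison. The motif, on either strand, lay in 19.6% of all 32851 promoter windows and in 11 of 35 windows of the members (31.4%, of 6 genes). Members that passed in any comparison had 11 windows, of 9 genes, and the motif lay in 1 of these windows (9.09%). That window is the one of Pcx shown above, with matches that begin 248, 247 and 140 bases before the start site; the matches at 248 and 247 overlap in the palindrome CACGTG. A second Pcx window had none, and 6 of the windows with a match belong to alternative starts of Ogdh. A match is a string of letters in this window and not a site of binding, and its absence speaks only of these 300 bases.

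Of 7 genes that make citrate or carry it to 2-oxoglutarate, 1 rose in P81S against wildtype and 0 fell. Over all genes 17.2% rose and 17.5% fell there. Cs, citrate synthase, which makes citrate, was measured at 12.21, 12.14, 12.14 and 12.09 log2 in the P81S arrays, 11.78, 12.08 and 11.80 in R167Q, and 11.99, 11.79 and 11.90 in wildtype. Every P81S array lay above every other array. The rise over wildtype was 1.19-fold (log2 0.25 ± 0.09 SE, limma adjusted p = 0.0393), and over R167Q the difference was 0.26 ± 0.09 (adjusted p = 0.0521), which passed under 9 of 27 alternatives (0.0105 to 0.0498). The call against wildtype ended without any one P81S array or without wildtype replicate 2 or 3, at adjusted p of 0.0509 to 0.158. Aco1, the cytosolic aconitase that doubles as an iron-regulatory RNA-binding protein, differed by -0.05 ± 0.12 log2 between P81S and wildtype and did not pass.

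None of the 5 isocitrate dehydrogenase genes passed in P81S against wildtype, beside 34.7% of all genes. Idh1, the cytosolic NADP-dependent enzyme, read 11.91, 12.23, 12.01 and 11.16 log2 in P81S, 11.32, 11.73 and 10.97 in R167Q, and 11.41, 11.46 and 11.09 in wildtype. Replicates 1 to 3 of P81S were above all other arrays and replicate 4 fell among them, and the difference from wildtype, 0.51 ± 0.24 log2, did not pass (adjusted p = 0.133). Leaving out P81S replicate 4, the low array, necessarily enlarged it, to 0.73 with an adjusted p of 0.0113 in limma. Idh2, the mitochondrial NADP-dependent enzyme, differed by -0.04 ± 0.14.

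Idh3a, Idh3b and Idh3g encode the catalytic and regulatory subunits of the NAD-dependent enzyme of the cycle. Idh3a read 10.57, 10.76, 10.71 and 10.83 log2 in P81S, 10.36, 10.54 and 10.31 in R167Q, and 10.55, 10.40 and 10.60 in wildtype. It rose 1.24-fold in P81S over R167Q (0.31 ± 0.10, limma adjusted p = 0.0414), with no overlap of arrays, and differed by 0.20 ± 0.10 from wildtype without passing (adjusted p = 0.142). The call ended without P81S replicate 2, 3 or 4, R167Q replicate 1 or 3, or wildtype replicate 1 or 2 (adjusted p of 0.0509 to 0.143). Idh3b and Idh3g differed from wildtype by 0.09 ± 0.09 and -0.22 ± 0.08, and Idh3g did not pass (adjusted p = 0.0506). Under 10 of 27 alternatives Idh3g did pass, at adjusted p of 0.0309 to 0.0491.

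The 2-oxoglutarate dehydrogenase complex showed no member that passed in any comparison. Its subunits are Ogdh, the decarboxylase; Dlst, the succinyltransferase; and Dld, a dehydrogenase shared with the pyruvate complex. Against wildtype the differences in P81S were 0.09 ± 0.14, -0.11 ± 0.08 and -0.17 ± 0.11 log2. Ogdh lies on chromosome 11, and within P81S it read 11.08 and 10.73 in replicates 1 and 2, and 11.23 and 11.30 in replicates 3 and 4.

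Succinyl-CoA synthetase pairs a common alpha subunit, Suclg1, with a beta subunit that sets the nucleotide: Suclg2 for GTP and Sucla2 for ATP. Suclg2 (gene at chr6:95473009-95718858) read 9.41, 9.07, 8.62 and 8.93 log2 in P81S, 9.73, 9.64 and 9.76 in R167Q, and 10.14, 9.96 and 10.25 in wildtype. The probe set used is numbered mostly among genes of chromosome X, and its target position was not used here. The 3 genotypes did not overlap, with P81S lowest and wildtype highest. It fell by 1.11 ± 0.16 on the log2 scale in P81S against wildtype (limma adjusted p = 0.000426) and by 0.70 ± 0.16, 1.63-fold, against R167Q (adjusted p = 0.0105). R167Q was 0.41 ± 0.17 lower than wildtype without passing (adjusted p = 0.495).

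Sucla2 read 9.15, 9.15, 8.94 and 9.14 log2 in P81S, 9.05, 9.03 and 9.02 in R167Q, and 9.26, 9.24 and 9.20 in wildtype. Its difference from wildtype was small, -0.14 ± 0.10, and did not pass. Suclg1 was 0.26 ± 0.10 lower in P81S than in wildtype (adjusted p = 0.0784), again without passing, although the arrays did not overlap.

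Succinate dehydrogenase, which is also complex II of the respiratory chain, passed in 1 of its 4 subunit genes in P81S against wildtype. Over all genes 34.7% passed there. Sdhd, a membrane anchor, read 9.37, 9.23, 9.26 and 9.33 log2 in P81S, 9.41, 9.60 and 9.57 in R167Q, and 9.75, 9.77 and 9.68 in wildtype. The 3 genotypes were again fully separated. It was 1.35-fold lower in P81S than in wildtype (log2 -0.44 ± 0.09, limma adjusted p = 0.00361) and 0.23 ± 0.09 lower than in R167Q, which did not pass (adjusted p = 0.0984). The flavoprotein Sdha, the iron-sulphur subunit Sdhb and the other anchor Sdhc differed from wildtype by -0.05 ± 0.07, 0.04 ± 0.08 and 0.00 ± 0.09.

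Fumarate hydratase and mitochondrial malate dehydrogenase fell in P81S against wildtype. Fh1, the hydratase, read 10.70, 10.78, 10.86 and 10.90 log2 in P81S, 10.93, 10.90 and 10.85 in R167Q, and 11.15, 11.24 and 11.44 in wildtype. P81S and R167Q overlapped, and wildtype lay above both. The fall in P81S was 0.47 ± 0.09 on the log2 scale, 1.38-fold (limma adjusted p = 0.00189). In R167Q the difference from wildtype was -0.39 ± 0.09, with an unadjusted limma p of 0.00179 that did not pass over all genes (adjusted p = 0.283). P81S differed from R167Q by -0.08 ± 0.09.

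Mdh2, the mitochondrial malate dehydrogenase, read 12.29, 12.27, 12.29 and 12.27 log2 in P81S, 12.29, 12.35 and 12.09 in R167Q, and 12.47, 12.49 and 12.50 in wildtype. Wildtype again lay above all other arrays. The fall in P81S was 1.15-fold (-0.21 ± 0.07, adjusted p = 0.037 in limma). R167Q differed from wildtype by -0.24 ± 0.07 without passing (adjusted p = 0.359). The P81S call ended when any one of 8 arrays was left out, all but R167Q replicates 2 and 3, with adjusted p of 0.0502 to 0.097, and with quantile normalization (0.0688).

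Mdh1, the cytosolic malate dehydrogenase of the malate-aspartate shuttle, split the P81S arrays. It read 11.11, 11.06, 11.53 and 11.63 log2 in P81S, 11.07, 11.01 and 11.09 in R167Q, and 11.12, 11.10 and 10.98 in wildtype. Replicates 3 and 4 of P81S were high, while replicates 1 and 2 lay with the other genotypes. The difference from wildtype, 0.27 ± 0.13, did not pass (adjusted p = 0.149). Mdh1 lies on chromosome 11, whose median was -0.166 and -0.201 log2 in P81S replicates 1 and 2, and 0.031 and 0.055 in replicates 3 and 4. The part of the chromosome in the Mdh1 split was not tested. After each array's chromosome median was removed, Mdh1 differed by 0.39 with an adjusted p of 0.00698 in limma. Leaving out P81S replicate 2, the lowest of the P81S arrays for this gene, necessarily enlarged the difference, to 0.36 (adjusted p = 0.0484).

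**Figure D2:**
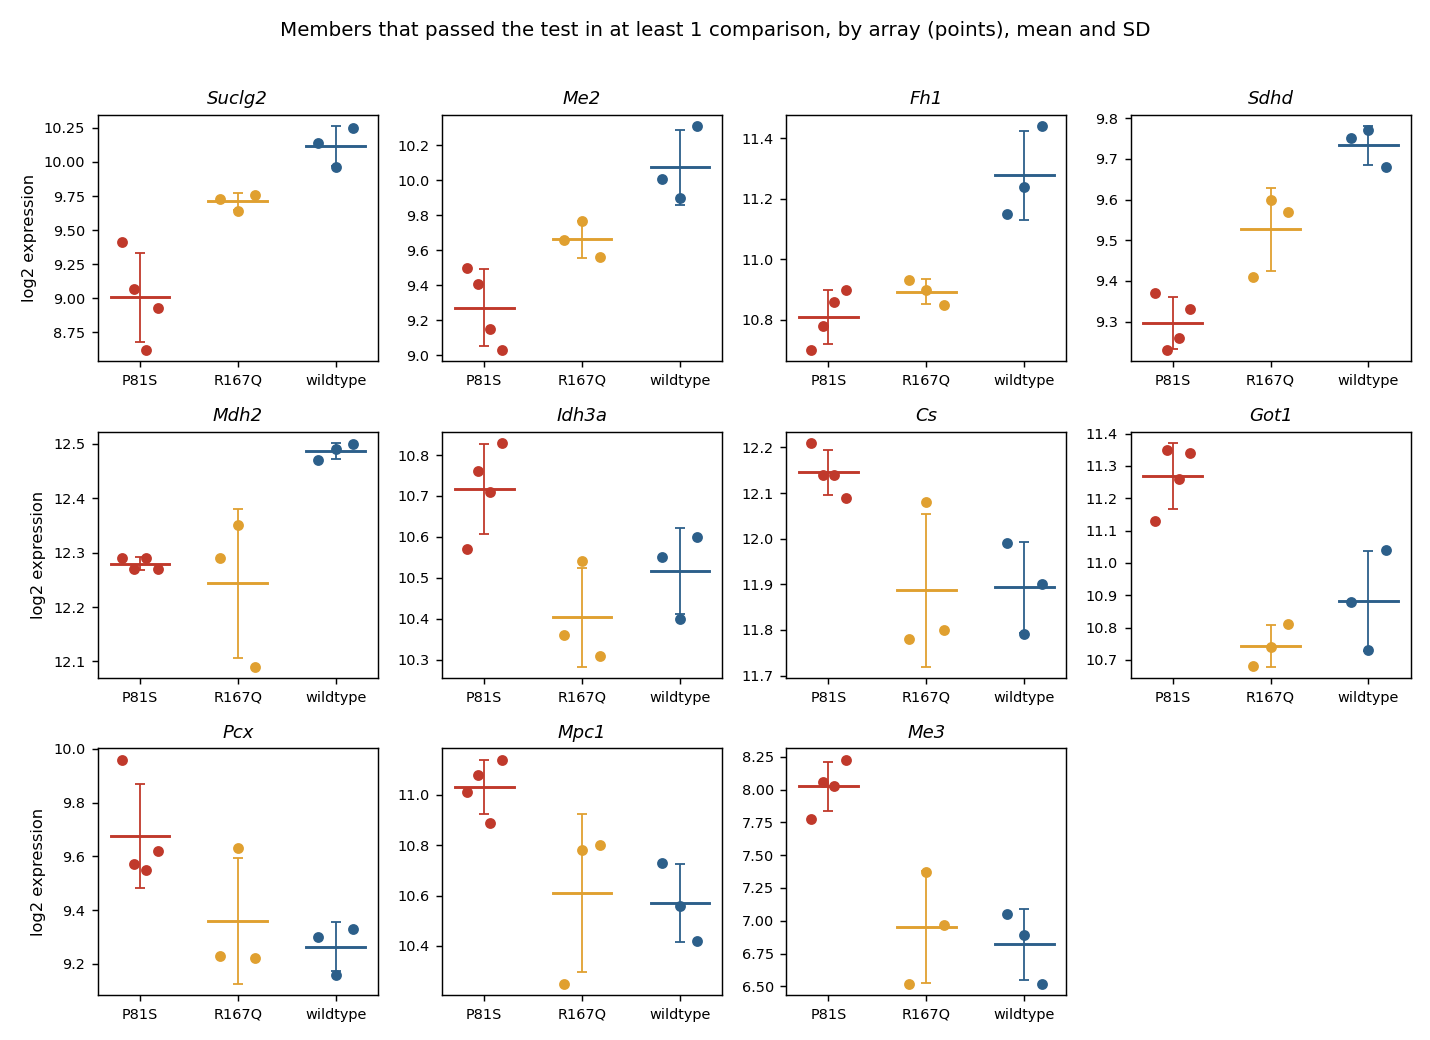
Log2 expression in each array (points), with the mean (bar) and SD (whisker) per genotype, for the 11 members that passed in at least 1 comparison; each panel has its own axis, which does not start at 0. Suclg2, Me2 and Sdhd run from P81S lowest to wildtype highest with R167Q between; in Me3 all P81S arrays (7.78 to 8.23) lie above the other arrays (6.52 to 7.37).

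Pyruvate reaches the matrix through a carrier of which Mpc1 was measured, by a probe set numbered mostly among genes of chromosome 12. Mpc1 read 11.01, 11.08, 10.89 and 11.14 log2 in P81S, 10.25, 10.78 and 10.80 in R167Q, and 10.73, 10.56 and 10.42 in wildtype. All P81S arrays were above all others. The rise was 1.38-fold over wildtype (0.46 ± 0.14, limma adjusted p = 0.0231) and 1.34-fold over R167Q (0.42 ± 0.14, adjusted p = 0.04998, at the threshold). The call against wildtype ended without P81S replicate 4 or wildtype replicate 2 or 3 (adjusted p of 0.0547 to 0.0992). That against R167Q ended without any one array other than R167Q replicates 2 and 3 (0.0563 to 0.2), and without R167Q replicate 1 the difference was 0.24.

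The measured subunits of the pyruvate dehydrogenase complex did not pass in any comparison. They are Pdhb, of the E1 decarboxylase; Dlat, the E2 acetyltransferase; and Pdhx, which tethers the shared Dld. Their differences between P81S and wildtype were -0.13 ± 0.16, 0.06 ± 0.09 and -0.11 ± 0.12 log2. Dlat read 10.04, 10.09, 10.03 and 10.03 in P81S, above all R167Q arrays at 9.90, 9.85 and 9.74, and that difference of 0.22 ± 0.09 did not pass (adjusted p = 0.114).

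Kinases and phosphatases switch this complex by phosphorylation. Of 7 kinase and phosphatase genes 2 rose, 2 fell and 3 did not pass in P81S against wildtype. Over all genes 17.2% rose and 17.5% fell there. Pdp1, a phosphatase that activates the complex, rose by 0.55 ± 0.10 log2 over wildtype (adjusted p = 0.00126) and by 0.62 ± 0.10 over R167Q (adjusted p = 0.00152). Pdk1, an inactivating kinase and a known HIF target, read 9.56, 9.61, 9.62 and 9.57 log2 in P81S, 10.16, 10.12 and 10.24 in R167Q, and 9.87, 9.93 and 10.14 in wildtype. It was lowest in all P81S arrays, 0.39 ± 0.09 below wildtype (adjusted p = 0.00707) and 0.58 ± 0.09 below R167Q (adjusted p = 0.00173). The kinase gene Pdk2 rose by 0.73 ± 0.22 over wildtype (adjusted p = 0.0223), and Pdk3, named as the remaining call after its value was seen, was 1.28-fold lower.

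Pyruvate carboxylase and the malic enzymes, which move carbon between pyruvate and oxaloacetate or malate, passed in all 3 genes in P81S against wildtype. Over all genes 34.7% passed there. Pcx, the carboxylase, read 9.96, 9.57, 9.55 and 9.62 log2 in P81S, 9.23, 9.63 and 9.22 in R167Q, and 9.30, 9.16 and 9.33 in wildtype. P81S replicate 1, the array with high epithelial markers, was highest, and R167Q replicate 2 overlapped P81S. The rise over wildtype was 1.33-fold (0.41 ± 0.14, limma adjusted p = 0.0404). It was 0.32 without P81S replicate 1 (adjusted p = 0.0768), and the call also ended without P81S replicate 3 or 4 or any one wildtype array (up to 0.139). Over R167Q the difference was 0.31 ± 0.14 (adjusted p = 0.136).

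The malic enzymes of the mitochondria went opposite ways. Me2, the NAD-dependent enzyme, read 9.50, 9.41, 9.15 and 9.03 log2 in P81S, 9.66, 9.77 and 9.56 in R167Q, and 10.01, 9.90 and 10.31 in wildtype. The genotypes did not overlap. It was 1.75-fold lower in P81S than in wildtype (-0.80 ± 0.14, limma adjusted p = 0.00131). Against R167Q it was 0.39 ± 0.14 lower, which did not pass (adjusted p = 0.0735). Leaving out P81S replicate 1, the highest of the P81S arrays for this gene, necessarily enlarged that difference, to -0.47 (limma adjusted p = 0.0318). Me3, the NADP-dependent enzyme, read 7.78, 8.06, 8.03 and 8.23 log2 in P81S, 6.52, 7.37 and 6.97 in R167Q, and 7.05, 6.89 and 6.52 in wildtype. All P81S arrays were above all others. It rose by 1.21 ± 0.21 over wildtype (adjusted p = 0.0013) and by 1.07 ± 0.21, 2.10-fold, over R167Q (adjusted p = 0.00499). Me1, the cytosolic NADP-dependent enzyme and not a member, rose by 0.54 ± 0.17 over wildtype (adjusted p = 0.0279).

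Of the glutamine branch, Glud1, Got1 and Got2 were measured. Got1, the cytosolic aspartate aminotransferase, read 11.13, 11.35, 11.26 and 11.34 log2 in P81S, 10.68, 10.74 and 10.81 in R167Q, and 10.88, 10.73 and 11.04 in wildtype. P81S was above all other arrays. The rise was 1.31-fold over wildtype (0.39 ± 0.09, limma adjusted p = 0.00783) and 1.44-fold over R167Q (0.53 ± 0.09, adjusted p = 0.00292). Its mitochondrial partner Got2 differed from wildtype by 0.09 ± 0.07 and glutamate dehydrogenase Glud1 by -0.09 ± 0.12, and neither passed in any comparison.

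Within an array, the log2 difference between isoenzymes of a pair does not depend on array scaling and shows unequal change. Of 5 such pairs, 4 differed between P81S and the other 6 arrays by an exact two-sided permutation test with Benjamini-Hochberg adjustment over the pairs. The smallest p that 4 against 6 arrays allow is 0.00476. The test treats arrays as independent, does not allow for the clone pairs of P81S, and pools R167Q with wildtype. Other gene pairs were not tested, so no background share is known. Over single genes 34.7% passed in P81S against wildtype and 22.5% against R167Q. Suclg2, Me2, Me3, Got1 and Mdh2 had passed singly against wildtype, so the pairs partly repeat those calls. Me2 minus Me3 averaged 1.25 ± 0.39 in P81S (SD, n = 4) and 2.98 ± 0.49 in the other arrays (SD, n = 6), exact p = 0.00476 and adjusted p = 0.0119. Suclg2 minus Sucla2 was -0.32 to 0.26 in P81S against 0.61 to 1.05 in the others, with the same exact p and adjusted p. Both pairs were separated without overlap.

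Got1 minus Got2 shifted by 0.35 (exact permutation p = 0.00952, adjusted p = 0.0159) and Mdh1 minus Mdh2 by 0.36 (exact permutation p = 0.0333, adjusted p = 0.0417), with overlapping arrays in each. The malate dehydrogenase pair had differences of -1.18, -1.2, -0.76 and -0.64 in P81S, -1.22, -1.35 and -1.0 in R167Q, and -1.36, -1.39 and -1.52 in wildtype. Its call ended when any array other than P81S replicates 1 and 2 and R167Q replicate 3 was left out (adjusted exact permutation p of up to 0.134). Idh1 minus Idh2 shifted by 0.60 without passing (exact permutation p = 0.0524).

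**Figure D3:**
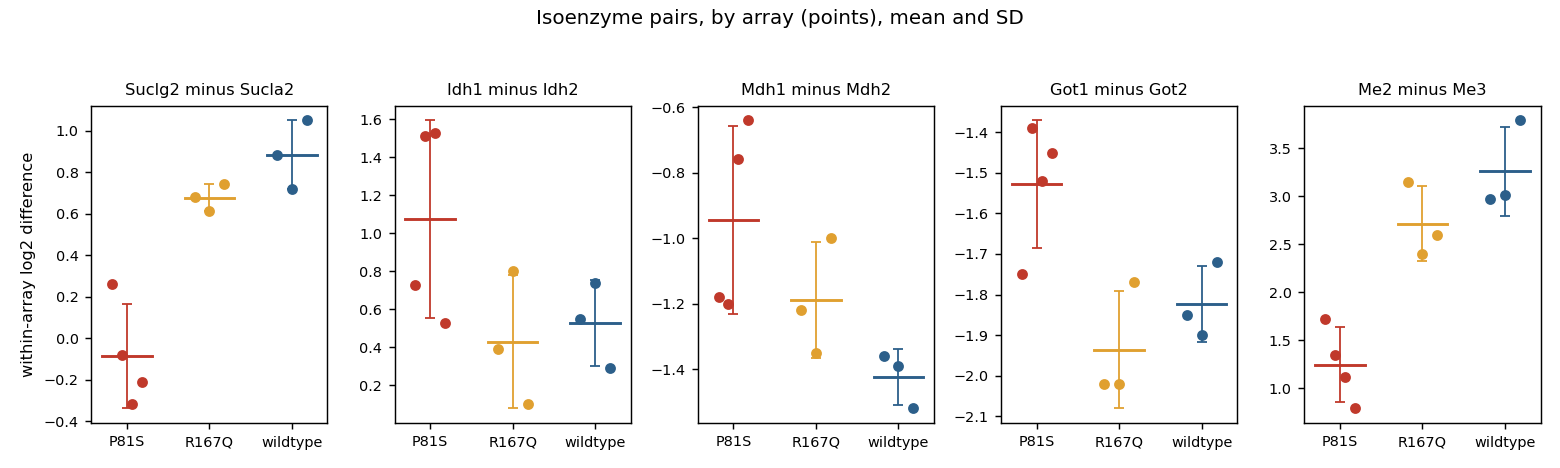
Within-array log2 difference between the isoenzymes of 5 pairs, per array (points), with mean and SD per genotype; each panel has its own axis. P81S arrays lie below all others for Suclg2 minus Sucla2 (-0.32 to 0.26 against 0.61 to 1.05) and for Me2 minus Me3 (0.79 to 1.72 against 2.40 to 3.79).

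R167Q values stood between those of P81S and wildtype in 7 of the 10 members that passed in P81S against wildtype; Got1, Mdh2 and Cs were the exceptions, Cs at a difference of 0.00 ± 0.09 between R167Q and wildtype. The arrays of R167Q and wildtype did not overlap for 10 of 30 members, against a background of 19.3% of genes, and 6 of 30 members (20%) had a difference above 0, beside 46.0% of all genes. The largest differences there were -0.41 for Suclg2 and for Me2 and -0.39 for Fh1. None of these passed over all genes tested.

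The carriers that link the cycle to the cytosol held the largest changes of the neighbouring lists. Of 7 measured mitochondrial metabolite carriers 3 rose, 1 fell and 3 did not pass in P81S against wildtype, and the same numbers held against R167Q. Over all genes 17.2% rose and 17.5% fell against wildtype, and 12.4% rose and 10.1% fell against R167Q. Slc25a13, the aspartate-glutamate carrier citrin of liver, read 8.23, 8.15, 7.57 and 6.81 log2 in P81S, 9.34, 8.84 and 9.54 in R167Q, and 9.35, 9.40 and 9.90 in wildtype. It fell by 1.86 ± 0.32 against wildtype, 3.63-fold (limma adjusted p = 0.00107). Slc25a12, the aspartate-glutamate carrier aralar of brain and muscle, read 11.86, 12.04, 11.94 and 11.94 log2 in P81S, 11.04, 11.49 and 11.13 in R167Q, and 11.30, 11.22 and 11.01 in wildtype. It rose 1.70-fold over wildtype (0.77 ± 0.11, adjusted p = 0.000474). The glutamate carrier genes Slc25a22 and Slc25a18 rose 1.99-fold and 2.60-fold; Slc25a18 is outside the naming rule and was named after its value was seen.

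Lipoic acid is the swinging arm of Dlat and Dlst, and a short pathway makes and attaches it. Of 7 genes for lipoylation and succinate dehydrogenase assembly 0 rose, 4 fell and 3 did not pass against wildtype. Over all genes 17.2% rose and 17.5% fell in P81S there. The lipoyl synthase gene Lias fell by 0.68 ± 0.12 (limma adjusted p = 0.00131), the octanoyltransferase gene Lipt2 by 0.75 ± 0.16 (adjusted p = 0.0037) and the lipoyltransferase gene Lipt1 by 0.58 ± 0.14 (adjusted p = 0.00812). Lias read 8.12, 8.49, 8.15 and 8.27 log2 in P81S, 8.62, 8.65 and 8.54 in R167Q, and 9.03, 8.90 and 8.88 in wildtype. Against R167Q none of the 7 passed in limma, beside 22.5% of all genes, with 3 at an unadjusted p under 0.05.

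Of 14 measured genes of glutamine uptake and glutamate conversion 4 rose, 1 fell and 9 did not pass against wildtype. Over all genes 34.7% passed there, 17.2% higher and 17.5% lower, so this list passed at about the background share. Asns, asparagine synthetase, which consumes glutamine, was 1.80-fold lower (-0.85 ± 0.11, adjusted p = 0.000241) and the glutamine transporter gene Slc38a1 1.54-fold higher (0.62 ± 0.10, adjusted p = 0.000711). Slc3a2, the heavy chain of amino acid exchangers, rose by 0.28 ± 0.08 (adjusted p = 0.0186). Among 8 other anaplerotic and citrate-using enzymes 1 rose and 1 fell: Me1, given above, and the propionyl-CoA carboxylase subunit gene Pcca (-0.31 ± 0.11, adjusted p = 0.0466). Ogdhl, an Ogdh paralogue, differed by -0.33 ± 0.17 without passing.

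Cell type markers moved in the same arrays. As background for their counts, 17.2% of all genes rose and 17.5% fell in P81S against wildtype. All 8 pluripotency markers fell in P81S against wildtype, with mean levels of 6.01 to 8.14 log2 in P81S, 9.37 to 10.41 in R167Q and 10.28 to 11.09 in wildtype; the log2 differences were -3.18 ± 0.35 for Dppa4, -3.47 ± 0.43 for Zfp42 and -3.5 ± 0.43 for Nanog. Of 7 proliferation genes 6 fell and 0 rose, with means of 9.20 to 10.24 log2 in P81S, 10.84 to 11.11 in R167Q and 11.11 to 11.44 in wildtype; Aurkb, Mcm6 and Top2a differed by -1.46 ± 0.16, -1.84 ± 0.23 and -1.63 ± 0.25. Neuron markers rose in 6 of 7 genes, with means of 11.57 to 11.99 log2 in P81S, 10.81 to 11.36 in R167Q and 10.66 to 11.07 in wildtype, and Map2, Gap43 and Snap25 by 0.85 ± 0.09, 1.18 ± 0.15 and 1.35 ± 0.22.

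Astrocyte markers rose in 3 of 6, with means of 10.60 to 11.32 log2 in P81S, 9.77 to 10.51 in R167Q and 9.67 to 9.90 in wildtype, led by Slc1a2 (2.12 ± 0.16), Gfap (1.73 ± 0.35) and Slc1a3 (0.50 ± 0.16). Yolk sac and liver markers fell in 2 of 8, Fgb (-2.07 ± 0.27) and Afp (-1.64 ± 0.50), with means of 6.23 to 8.42 log2 in P81S, 7.08 to 7.60 in R167Q and 7.44 to 8.67 in wildtype. In the same comparison 1 of 8 squamous markers rose (Krt1, 1.12 ± 0.38), and 0 of 8 glandular, 0 of 8 striated muscle, 0 of 5 adipocyte and 0 of 6 macrophage markers passed in limma, with 0, 0, 0 and 1 at an unadjusted p under 0.05. Of 3 red cell genes 2 rose, Alas2 (2.72 ± 0.69) and Slc4a1 (1.90 ± 0.68). Means over the 3 were 6.82 to 9.18 log2 in P81S, 7.03 to 9.06 in R167Q and 6.12 to 6.37 in wildtype, so R167Q lay with P81S. The background for all these marker counts was 17.2% of genes higher and 17.5% lower. In whole tumours, fewer cells of a type and less RNA per cell cannot be told apart, and the part of these cell types in the member differences was not tested.

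Of the members, 5 had several probe sets of their own. For Suclg2 the other probe set read 0.6 to 0.8 log2 lower in every array and gave nearly the same fall, -1.05 ± 0.17 against wildtype (limma over all probe sets, adjusted p = 0.000797). For Mpc1 the other probe set gave a rise of 0.74 ± 0.24 over wildtype (adjusted p = 0.0316) and 0.54 ± 0.24 over R167Q, which did not pass (adjusted p = 0.131). The second Me3 probe set was dim, at a mean of 5.84 log2, and differed by 0.16 ± 0.12 from wildtype without passing, so the Me3 rise rests on 1 of its 2 probe sets. For Got2 and Pdhb none of the probe sets passed in any comparison.

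**Figure D4:**
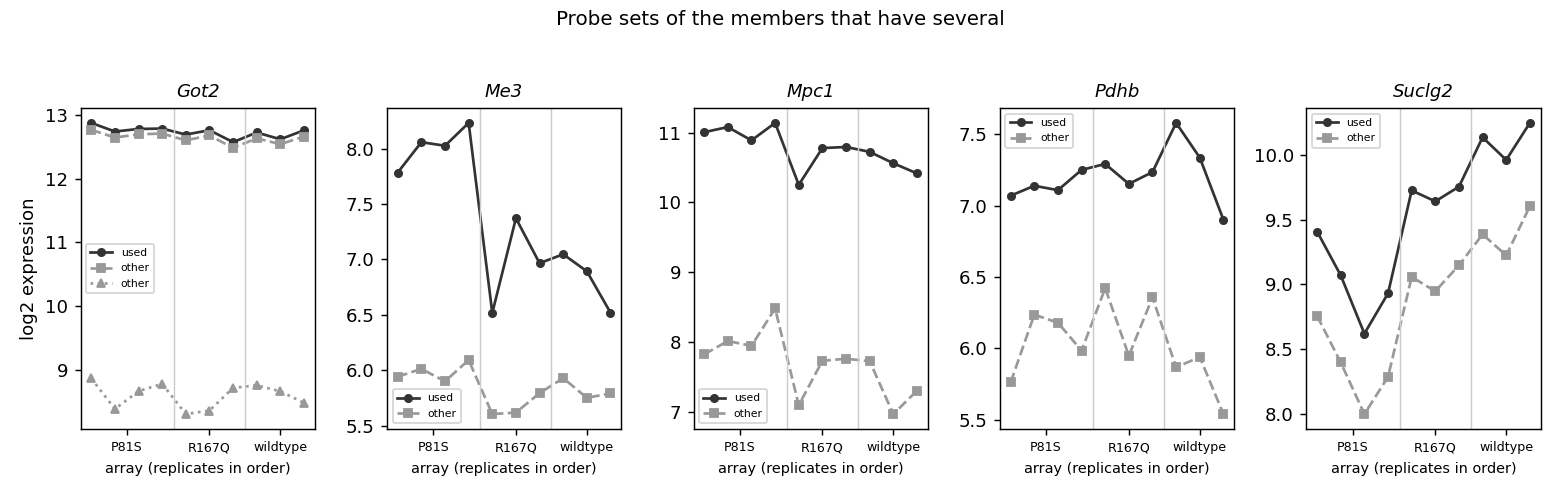
Log2 expression of every probe set of the 5 members with several, over the arrays of P81S, R167Q and wildtype; the dark line is the probe set used, and lines join arrays only to guide the eye. Both Suclg2 probe sets fall together in P81S, while the second Me3 probe set stays between 5.60 and 6.09 in all arrays.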

How the data were processed

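Affymetrix 1-colour arrays of 4 P81S, 3 R167Q and 3 wildtype teratomas were used. The deposited log2 values hold 1 value per probe set and array. Per the submitters' processing notes, RMA and Partek were used; versions, settings and roles are not given in the sources used here. RMA ordinarily sets arrays to 1 distribution, which would remove changes in total RNA. The deposited array medians still ran from 6.97 to 7.11 log2, so the values used here do not follow exactly 1 distribution. Array number limits the precision, and scanner signal was not used here.

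Of 35556 probe sets, 21218 were annotated with 1 gene, 1881 with several and 12457 with none listed. Entrez numbers matched RefSeq (GRCm38.p6) for 21185, with 0 symbols changed. All 10 value columns were used. One linear model with 3 group means was fitted to 18820 genes with limma 3.58.1 (variance trend, two-sided, R 4.3.3, 7 residual degrees of freedom, prior 3.85), and p-values were adjusted over all genes of a contrast. The fit was tested on simulated data. Isoenzyme pairs were compared with exact permutation tests (scipy 1.17.1); Mpc1 minus Mpc2 could not be formed. Errors of differences are SE and of means SD. The labels call replicates biological without naming cultures or animals, so p-values measure only the spread between these tumours, which may be technical.

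Every measured member is named, with array values for those that passed or had the 10 largest differences between P81S and wildtype. Of each other list up to 3 genes with the smallest p are named. Members and lists were chosen with earlier results of these data known. Deviations of same-numbered arrays from their genotype means had correlations of -0.278 to 0.212. Differently numbered arrays were not compared in this way, so whether replicate numbers pair arrays was not tested.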

Additional observations from a re-analysis of the deposited data

Results flagged for a closer look

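In P81S, Sucla2 and Pcx each had 1 array whose gap to its nearest neighbour took up most of the group's range, above Dixon's 95% critical value for 4 arrays. Sucla2 read 8.94 log2 in P81S replicate 3 against 9.14 to 9.15 in the other 3 (gap over range 0.958). Pcx read 9.96 in P81S replicate 1 against 9.55 to 9.62 (gap over range 0.83). There were 35 values tested in this way, the 30 members and 5 isoenzyme pairs, and 2 exceeded the critical value; chance gives about 1 in 20. The squamous marker mean was also highest in P81S replicate 1, at 9.53 log2, and its part in the Pcx value was not tested.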

How the results depend on the processing

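Over 27 alternatives, 0 of the 15 member calls (10 in P81S against wildtype, 5 in P81S against R167Q) changed sign, and 7 were kept under all of them: Suclg2, Sdhd, Fh1, Me2 and Me3 against wildtype, and Got1 and Me3 against R167Q. Leaving out P81S replicates 3 and 4 ended Got1 against wildtype (adjusted p = 0.0567) and Suclg2 against R167Q (0.0604); this leaves 2 P81S arrays. The number of members that passed against wildtype was 10, 6 without P81S replicates 3 and 4, and 15 with array weights (8 higher, 7 lower) and 6 to 11 with single arrays left out, with 6 without wildtype replicate 2 or 3. Among members not called, 47 of 2025 combinations of result and alternative gained a call, most often Idh3g against wildtype (10 alternatives) and Cs against R167Q (9). Against R167Q the number of members that passed was 5. It was 8 with chromosome medians removed, 3 without a variance trend, 3 with only the compared genotypes and 10 with array weights. It was 8 without P81S replicates 1 and 2, 2 without replicates 3 and 4, and 3 to 7 with single arrays left out. Clone pairs of P81S had to be assumed for a random block. Pairs 1+3 and 2+4 gave 8 members, at a negative fitted correlation of -0.23. Pairs 1+2 and 3+4 gave 4, and pairs 1+4 and 2+3 gave 6. For all genes in R167Q against wildtype, 17 became 8 without dim genes, 28 with all probe sets tested, 26 with only the compared genotypes, 42 with array weights and 5 to 21 with single arrays left out, while 0 members passed throughout. For all genes in P81S against R167Q, 4234 became 2419 without P81S replicates 3 and 4 and 2328 to 4916 with single arrays left out, lowest without R167Q replicate 1. Isoenzyme pairs that passed numbered 3 to 5. The cause of these shifts was not tested, other than fewer arrays or genes.

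With replicate number as a block, which leaves P81S replicate 4 no weight, 7 and 4 members passed in P81S against wildtype and against R167Q. In R167Q against wildtype 0 passed. The labels give same-numbered arrays nothing in common but the number. The block left 5368, 2952 and 15 genes in the same order. One alternative was chosen after seeing the data: the probe set at the gene's own place in the numbering gave 10 and 4 members.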

Other observations

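The position each probe set targets was not used here, so its number was set beside those of its neighbours. For 27 of the 30 members, most of the 20 nearest numbered probe sets belong to genes of the member's own chromosome. For Suclg2, Mpc1 and Got2 the brightest probe set has 0 such neighbours: 19 of 20 belong to chromosome X, 12 and 5, although the genes lie on chromosomes 6, 17 and 8. Each of these 3 genes has another probe set with 18 or more of 20 neighbours on its own chromosome. That probe set was dimmer by 3.1 log2 for Mpc1 and by 0.09 for Got2. Over all genes, 313 of 18820 were represented by a probe set other than the one numbered among genes of its own chromosome.

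A pair of probe sets annotated to both Map3k15 and Pdha1 read differently. One lay between 10.20 and 10.38 log2 in all 10 arrays. The other read 6.81, 7.35, 6.85 and 7.0 log2 in P81S, 8.70, 8.41 and 8.59 in R167Q, and 9.07, 9.20 and 9.55 in wildtype. These values are not assigned to either gene. A probe set annotated to both Csl and Cs read 5.83 to 6.11 log2 in P81S, 5.56 to 5.77 in R167Q and 5.57 to 5.91 in wildtype.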
